A study of Mus musculus with 10 samples.

Results

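The Zfp genes of mouse dendritic cells, named for zinc finger proteins, were followed in cells with and without normal levels of Ptbp1. The product of Ptbp1 binds pyrimidine-rich stretches of RNA and controls alternative splicing and other steps in the life of an mRNA. The members are the genes of the deposited FPKM table (fragments per kilobase of gene, scaled by library depth) whose name is Zfp followed by a digit. That table lists only genes above 1 FPKM in every library, so the members were selected on their FPKM level, and a gene that fell below 1 FPKM in a single library could not be among them. Zfp36, Zfp36l1 and Zfp36l2, which encode mRNA-binding proteins with a different kind of finger, and Zfp532 were left out, of which the first 3 were among the 237 genes so named in the table. This left 234 of the 11968 genes in the table, and all 234 were in the count table of 19178 genes and were tested there. Poly(A) RNA came from dendritic cells of Ptbp1-deficient mice (5 libraries) and of wild-type (WT) mice (5 libraries), all aged 8 to 10 weeks. The labels do not state the tissue, the sex, the promoter or Cre used, or which part of the gene was altered. Whether the libraries stem from separate mice is not labelled either, and p-values therefore describe the spread among these 10 libraries.

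Most proteins of this kind carry C2H2 zinc fingers, small loops held by a zinc ion through cysteine and histidine residues, and a row of such fingers reads a DNA sequence. Many also carry a KRAB box, which binds the corepressor Trim28 (KAP1). Trim28 in turn brings the histone methyltransferase Setdb1 and the HP1 proteins to the DNA, and in mouse embryonic stem cells this machinery is best known for silencing endogenous retroviruses. KRAB zinc finger genes arose largely by tandem duplication and sit in clusters on the chromosomes. Other Zfp proteins have no KRAB box and act as transcription factors, spindle proteins or cofactors.

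Counts assigned to genes totalled 61759378 to 92697815 in the Ptbp1-deficient libraries and 50516163 to 66153758 in the WT libraries. Ptbp1 itself, the check of the labels, had 75.0, 73.4, 74.6, 73.2 and 75.7 TMM-normalized CPM (counts scaled by library size) in Ptbp1-deficient libraries, against 259, 296, 312, 309.6 and 294 CPM in WT libraries (log2 fold change -1.98, SE 0.05, edgeR's quasi-likelihood adjusted p = 1.9e-09). All 12 dendritic cell markers were present, the lowest, Irf4, at a mean of 100.4 CPM, and 5 were higher and 3 lower, with sums of 27537 to 30048 CPM in Ptbp1-deficient libraries and 23643 to 28740 CPM in WT libraries. Markers of other cells also differed. The 14 macrophage markers, none of them at 0 (the lowest, Fcgr1, at a mean of 10.0 CPM), summed to 638 to 1339 CPM in Ptbp1-deficient libraries and 1751 to 4568 CPM in WT libraries, with 11 lower and 0 higher. The 10 B cell markers summed to 97.9 to 118 CPM against 133 to 644 CPM, with 9 lower. The 8 NK cell markers summed to 171 to 250 CPM against 31.6 to 82.0 CPM, with 6 higher. None of the 6 T cell markers (17.4 to 22.02 against 6.21 to 57.3 CPM) or of the 6 neutrophil markers (92.0 to 164 against 54.1 to 809.6 CPM) passed the test. WT replicate 5 held the highest sum of all 5 of these lists among WT libraries, and WT replicate 1 the second highest. In such bulk RNA, fewer cells of a type and less RNA per cell cannot be told apart.

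Of the 234 members, 124 (53.0%) were lower and 12 (5.13%) were higher in Ptbp1-deficient cells at an adjusted p under 0.05 (edgeR's quasi-likelihood test, Benjamini-Hochberg over all 18248 genes tested), which is what "lower", "higher" or "called" means for all genes named. Over all genes tested 45.0% were called, 23.1% lower and 21.9% higher, and over the genes of the FPKM table, which share the members' level threshold, 52.5% were called, 23.5% lower and 29.0% higher. The members' median log2 fold change was -0.21, beside -0.03 for all genes and 0.02 for genes of the FPKM table, and 202 members had a negative value. The shifts were mostly small. Members called lower had a median fall of 1.28-fold. Of the 234 members, 18 were lower by over 1.5-fold (11.1% of all genes and 5.96% of the FPKM table were). By over 2-fold 5 of the 234 were lower, beside 1103 of all 18248 genes tested and 236 of the 11691 tested genes of the FPKM table. Only 1 member, Zfp367, was higher by over 1.5-fold (7.23% of all genes and 6.62% of the FPKM table were). For 81 members every Ptbp1-deficient library lay below every WT library, and for 9 every Ptbp1-deficient library lay above; over all genes tested this held for 16.2% and 17.2% (33.4% in all), and over the FPKM table for 17.1% and 23.6% (40.7% in all).

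**Figure D1:**
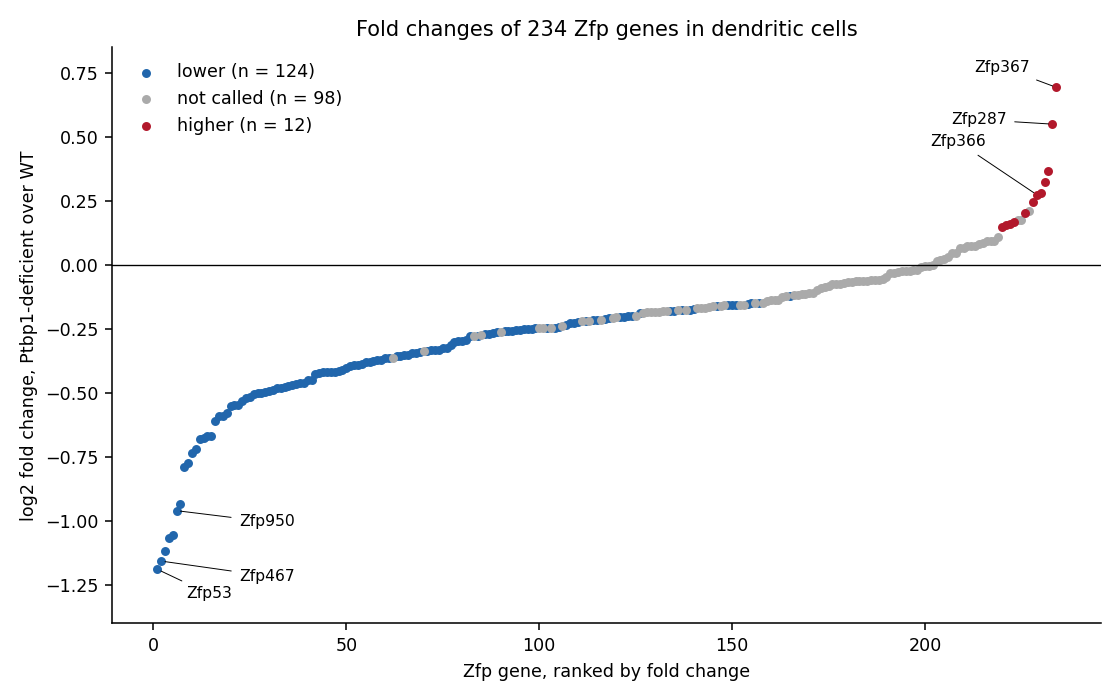
Log2 fold change, Ptbp1-deficient over WT, of each of the 234 Zfp genes (vertical axis), ranked from the lowest to the highest (horizontal axis). Blue points are the 124 genes called lower, red points the 12 called higher and grey points the 98 not called, and values run from -1.19 for Zfp53 to 0.69 for Zfp367.

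The mean log2 CPM of the members was 4.20, 4.23, 4.09, 4.11 and 4.14 in Ptbp1-deficient replicates 1 to 5, against 4.41, 4.40, 4.42, 4.43 and 4.25 in WT replicates 1 to 5. The groups did not overlap, but WT replicate 5 lay close to the Ptbp1-deficient libraries. For members with a KRAB box, WT replicate 5 (3.58) fell within the Ptbp1-deficient range of 3.42 to 3.60, while the other WT libraries were at 3.81 to 3.85. Members without a KRAB box had 4.97 to 5.06 in Ptbp1-deficient libraries and 5.14 to 5.21 in WT libraries, with no overlap. WT replicate 5 also held the most macrophage, B cell, NK cell, T cell and neutrophil transcripts among WT libraries. Without it, 145 members were lower and 10 higher (of all genes 22.9% and 22.5%). Without WT replicates 1 and 5 the counts were 139 and 9 (of all genes 22.3% and 21.7%). A fit with the macrophage markers' mean log2 CPM as a covariate, a measure that itself separates the groups, gave 126 and 6, of which 104 and 6 were among those called before. Of all genes, 17.4% were lower and 17.03% higher in that fit. The members' summed level was 7359 to 7941 CPM in Ptbp1-deficient libraries and 7823 to 8464 CPM in WT libraries.

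**Figure D2:**
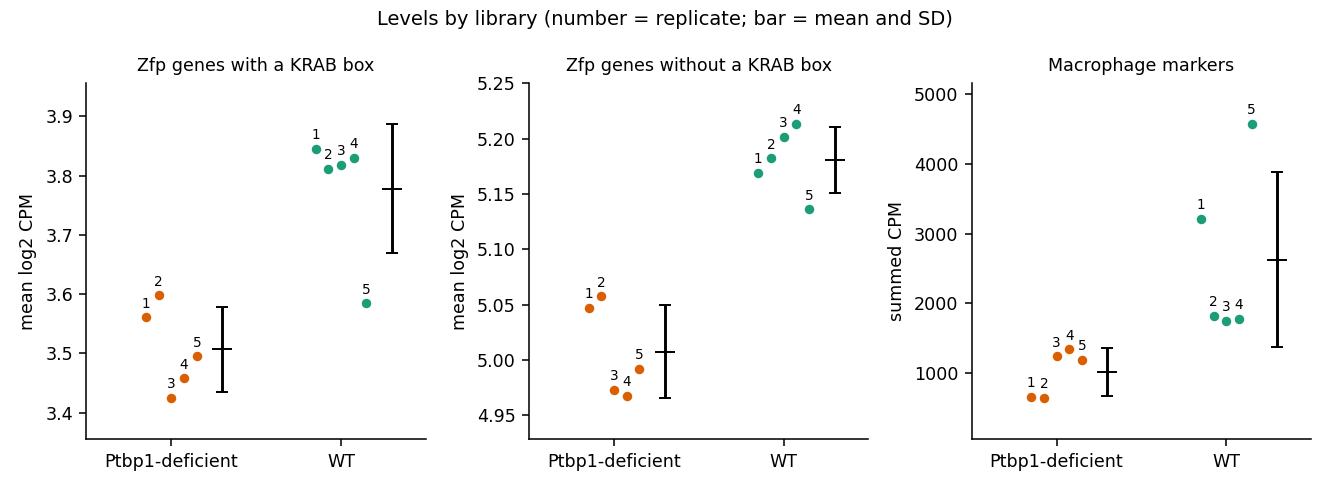
Mean log2 CPM of the members with and without a KRAB box and summed CPM of the 14 macrophage markers (vertical axes), by library, with Ptbp1-deficient libraries left of WT libraries. Points carry the replicate number, and bars give the mean and SD of 5 libraries. WT replicate 5 lies within the Ptbp1-deficient range for members with a KRAB box (3.58) and highest for the macrophage markers (4568 CPM).

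By structure, 129 members encode a protein with a KRAB box, 102 a protein without it, and 3 are pseudogenes (Zfp783, Zfp862-ps and Zfp939). The proteins hold 0 to 36 C2H2 fingers with a median of 10, and the medians were 11 with a KRAB box and 7 without. No finger of the searched form was found in 3, Zfp703, Zfp330 and Zfp839. Per length, the members were modestly expressed: their median over the mean deposited FPKM was 5.28, against 11.7 for the whole table, and 182 were under 10 FPKM. Members with a KRAB box had a median of 3.86 FPKM and those without 8.80 FPKM.

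Lower levels were found in both structural classes. With a KRAB box 74 of 129 (57.4%) were lower and 4 higher, and their median log2 fold change was -0.26. Without a KRAB box 49 of 102 (48.0%) were lower and 8 higher, with a median of -0.16. The 4 KRAB genes called higher were Zfp287, Zfp382, Zfp282 and Zfp810. Leaving out WT replicate 5 gave 91 lower with a KRAB box and 52 without. By finger number, 31 of 50 members with 15 or more fingers were lower and 0 higher, against 34 and 4 of 71 with 10 to 14, 41 and 3 of 73 with 5 to 9, and 17 and 5 of 37 with 0 to 4 fingers. By level, the lowest-expressed 78 members had 39 lower and 0 higher, the middle 78 had 46 and 3, and the highest-expressed 78 had 39 and 9. Members with a KRAB box had more fingers and lower levels, and the differences between classes were not tested.

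**Figure D3:**
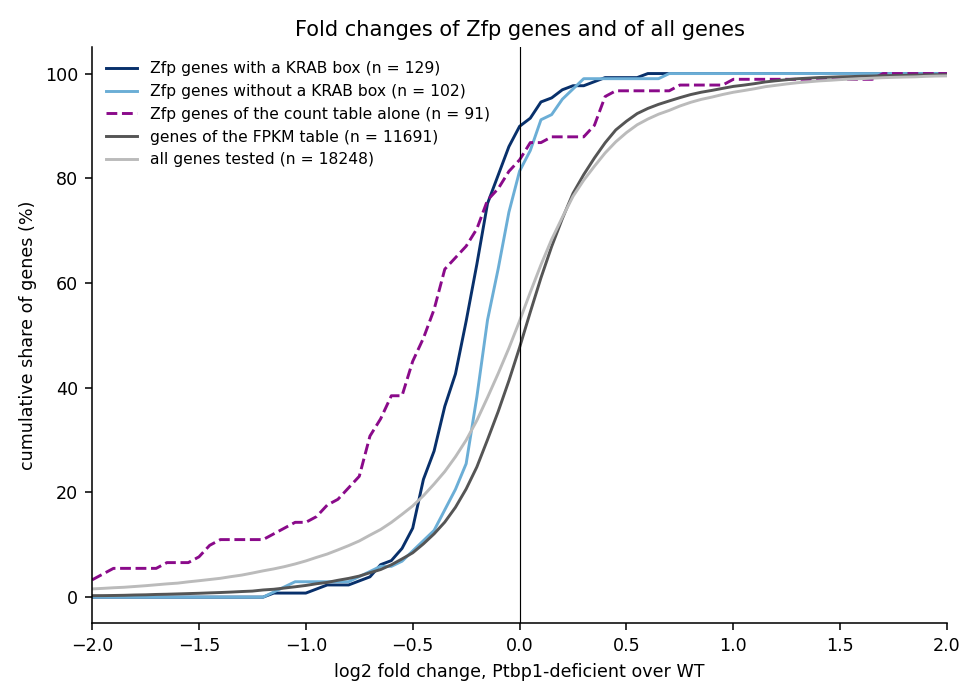
Cumulative share of genes (vertical axis, %) by log2 fold change, Ptbp1-deficient over WT (horizontal axis). The curves of 129 members with a KRAB box and 102 without lie left of those of the 11691 tested genes of the FPKM table and all 18248 genes tested, with medians of -0.26, -0.16, 0.02 and -0.03. The dashed curve of 91 Zfp genes outside the FPKM table has a median of -0.44, and no curve of other genes at their lower level is drawn.

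Promoter sequences, from 250 bases before to 50 after the RefSeq start (GRCm38.p6), were found for 197 members. Those of the members with the largest falls and rises among those with a promoter in the table are shown as the extremes of the range. Every match to the searched words is in capitals.
Zfp53 promoter, chr17:21488738-21489037, plus strand: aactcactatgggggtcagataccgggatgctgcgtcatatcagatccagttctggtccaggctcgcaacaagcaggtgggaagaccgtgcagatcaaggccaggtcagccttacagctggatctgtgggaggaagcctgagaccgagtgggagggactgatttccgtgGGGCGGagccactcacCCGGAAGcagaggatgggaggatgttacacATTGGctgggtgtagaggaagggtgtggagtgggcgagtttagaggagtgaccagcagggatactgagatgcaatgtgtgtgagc
Zfp467 promoter, chr6:48445041-48445340, minus strand: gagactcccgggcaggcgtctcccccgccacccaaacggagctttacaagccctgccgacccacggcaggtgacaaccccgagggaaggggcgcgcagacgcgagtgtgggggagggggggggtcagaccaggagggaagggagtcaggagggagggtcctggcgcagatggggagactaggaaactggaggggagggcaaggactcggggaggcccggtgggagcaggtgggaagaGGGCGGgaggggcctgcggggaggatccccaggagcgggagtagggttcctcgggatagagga
Zfp367 promoter, chr13:64153150-64153449, minus strand: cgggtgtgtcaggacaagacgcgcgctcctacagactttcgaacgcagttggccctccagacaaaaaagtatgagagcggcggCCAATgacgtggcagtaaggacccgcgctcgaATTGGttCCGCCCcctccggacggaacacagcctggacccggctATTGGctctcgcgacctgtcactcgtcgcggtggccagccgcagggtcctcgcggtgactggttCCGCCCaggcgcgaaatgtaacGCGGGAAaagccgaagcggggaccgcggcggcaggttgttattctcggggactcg
Zfp287 promoter, chr11:62731847-62732146, minus strand: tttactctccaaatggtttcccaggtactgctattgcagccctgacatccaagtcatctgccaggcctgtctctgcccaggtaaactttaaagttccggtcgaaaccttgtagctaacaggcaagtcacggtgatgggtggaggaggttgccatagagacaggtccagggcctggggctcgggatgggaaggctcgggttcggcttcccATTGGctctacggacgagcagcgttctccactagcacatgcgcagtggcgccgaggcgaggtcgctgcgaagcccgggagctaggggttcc

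Short words of well-known factors were searched on both strands. The CCAAT box was searched as spelled, the GC box as GGGCGG and the word of ETS factors as CCGGAAG. That of E2F factors was taken as GCGGGAA, the E box as CACGTG, the TATA box as TATAAA and the word of ZNF143 as ACTACAA. The longer word of NRF1 was searched too. The Zfp53 window above holds CCAAT, GC box and ETS words, Zfp467 a GC box, Zfp287 a CCAAT word, and Zfp367 3 CCAAT words, 2 GC boxes and an E2F word. Over the 197 members, 49.7% held CCAAT, against 37.9% of all 27025 promoters in the table, and 49.7% a GC box, against 35.9%. ETS words were in 22.3% against 9.12%, E2F in 8.63% against 4.66%, E box in 8.63% against 7.24%, ZNF143 in 5.08% against 3.45%, NRF1 in 8.63% against 4.78%, and TATA in 4.57% against 14.2%. Median GC content was 55.7% in members and 52.7% in the table. The median ratio of observed to expected CG pairs was 0.67 in members and 0.39 in the table. The comparison was matched for neither, nor for level: members were selected above 1 FPKM, and the promoters of the table were not. Whether these shares are particular to Zfp genes was not tested. Between members called lower and those not called, ETS words were in 20.6% of 102 and 25.6% of 86, E2F words in 11.8% and 4.65%, and E box words in 4.90% and 12.8%. Members with a KRAB box held a GC box in 39.1% and an NRF1 word in 3.48%, and those without in 63.8% and 16.25%. A match is a word in the sequence, not a bound site.

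The steepest falls were those of Zfp53, Zfp467, Zfp395, Zfp862-ps and Zfp579, at 43.9% to 48.1% of the WT level. Zfp53 encodes a KRAB protein with 15 fingers (ENSMUSG00000057409, GRCm38 chromosome 17, plus strand, 21488998 to 21510473). It had 16.3, 15.4, 12.1, 13.9 and 14.1 CPM in Ptbp1-deficient libraries, against 25.4, 37.7, 39.8, 38.8 and 21.9 CPM in WT libraries. The groups did not overlap, although WT replicates 1 and 5 were nearer to the Ptbp1-deficient libraries than the other WT libraries. This is 2.28-fold lower (log2 fold change -1.19, SE 0.16, edgeR's adjusted p = 0.00013). Zfp467, which encodes a 12-finger protein without a KRAB box known in mouse marrow stroma for favouring fat over bone differentiation, had 17.4, 16.7, 13.7, 14.6 and 13.2 CPM in Ptbp1-deficient libraries. WT libraries had 39.3, 31.5, 31.1, 32.2 and 34.5 CPM, far above the other group in every library (log2 fold change -1.16, SE 0.09, adjusted p = 2.5e-06).

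Zfp395, whose human counterpart binds the promoter of the Huntington's disease gene, had 6.08, 5.51, 6.94, 7.14 and 6.73 CPM in Ptbp1-deficient libraries, against 16.0, 11.5, 11.5, 13.9 and 17.5 CPM in WT libraries (log2 fold change -1.12, SE 0.13, adjusted p = 3.8e-05). The lowest WT library was still above the highest Ptbp1-deficient library. The pseudogene Zfp862-ps had 8.38, 10.5, 6.71, 7.88 and 7.89 CPM in Ptbp1-deficient libraries, against 17.03, 18.0, 17.5, 18.8 and 15.3 CPM in WT libraries (log2 fold change -1.07, adjusted p = 1.6e-05). The groups were apart here too, but its reads may be shared with annotated genes that overlap it on both strands. Zfp579, the member with the third lowest minimum FPKM, averaged 3.05 ± 0.307 CPM in Ptbp1-deficient libraries and 6.35 ± 0.529 CPM in WT libraries (SD, n = 5 each; log2 fold change -1.05, edgeR's adjusted p = 1.1e-05).

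Zfp950, Zfp82 and Zfp831 followed. Zfp950, a 17-finger KRAB gene, had 17.7, 19.1, 16.0, 17.8 and 19.9 CPM in Ptbp1-deficient libraries, against 40.2, 33.0, 34.3, 35.2 and 33.4 CPM in WT libraries (log2 fold change -0.96, SE 0.07, adjusted p = 1.8e-06). The libraries of each group lay close together and far from the other group. Zfp950 overlaps Grk5 on the opposite strand, and since it is unknown whether counting used strand, reads of the pair cannot be told apart. Zfp831, a long protein with 2 fingers, had 32.4, 33.2, 23.4, 21.5 and 26.2 CPM in Ptbp1-deficient libraries, against 44.8, 48.6, 48.3, 47.2 and 47.3 CPM in WT libraries (log2 fold change -0.79, SE 0.11, adjusted p = 0.00014). Replicates 1 and 2 were the higher among the Ptbp1-deficient libraries, and still below every WT library. Zfp82 is the least certain of the falls: its mean was 0.816 ± 0.183 CPM in Ptbp1-deficient libraries and 1.56 ± 0.415 CPM in WT libraries (SD, n = 5 each), and 94.3% of its transcript's 100-base words are shared with the overlapping gene Gm26920. Its call (log2 fold change -0.93, edgeR's adjusted p = 0.0056) was lost in the FPKM values (adjusted p = 0.12 with limma on log2(FPKM + 1)) and in the fit with the macrophage covariate (adjusted p = 0.19).

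The 12 genes called higher include the best-known dendritic cell gene of the family. Zfp366 encodes DC-SCRIPT, a zinc finger protein found mainly in dendritic cells, and was the most abundant member per length, at 64.4 FPKM in Ptbp1-deficient libraries and 56.2 FPKM in WT libraries. Its counts were 455, 464, 467, 482 and 462 CPM in Ptbp1-deficient libraries, against 370.4, 412, 392, 419 and 334 CPM in WT libraries (1.21-fold, log2 fold change 0.27, SE 0.06, edgeR's adjusted p = 0.0028). Every Ptbp1-deficient library was above every WT library, but in the fit with the macrophage covariate the call was lost (log2 fold change 0.19, adjusted p = 0.089).

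Zfp367 had the largest rise. This 2-finger gene, first described in erythroid cells as ZFF29, had 51.9, 51.2, 55.8, 57.7 and 58.9 CPM in Ptbp1-deficient libraries, against 28.5, 38.2, 30.9, 37.7 and 35.1 CPM in WT libraries (1.62-fold, log2 fold change 0.69, SE 0.08, adjusted p = 4e-05). The groups were well apart. Zfp287, a 14-finger KRAB gene, had 16.7, 16.5, 15.5, 15.6 and 19.3 CPM in Ptbp1-deficient libraries, against 13.3, 11.96, 10.2, 11.3 and 10.3 CPM in WT libraries (1.46-fold, log2 fold change 0.55, SE 0.09, adjusted p = 0.00043), again with no overlap.

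**Figure D4:**
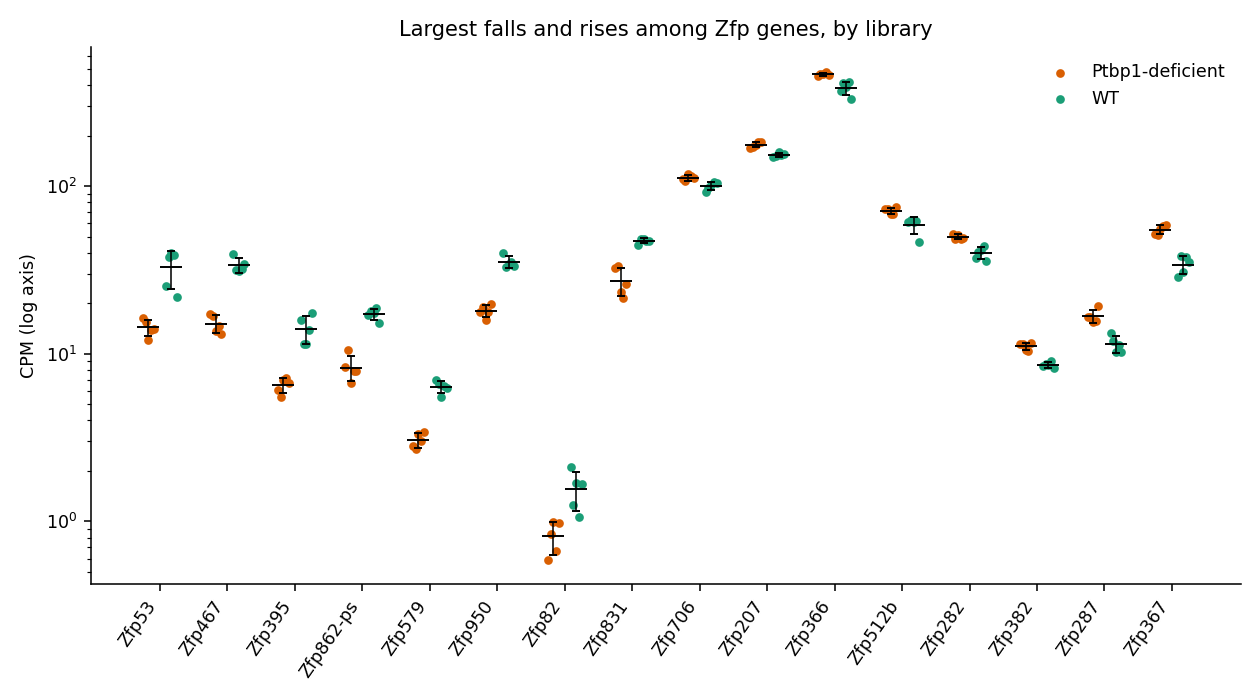
CPM on a log axis (vertical) of the 8 members with the largest falls and the 8 with the largest rises among called members whose groups do not overlap (horizontal axis, ordered by fold change), with Ptbp1-deficient libraries left of WT libraries. Points are libraries, and bars give the mean and SD of 5. Zfp53, at the left, had 12.1 to 16.3 CPM in Ptbp1-deficient libraries and 21.9 to 39.8 CPM in WT libraries, and Zfp367, at the right, 51.2 to 58.9 CPM and 28.5 to 38.2 CPM.

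The other rises were of 1.11-fold to 1.29-fold. Zfp382 averaged 11.1 ± 0.570 CPM in Ptbp1-deficient libraries and 8.59 ± 0.325 CPM in WT libraries, and Zfp282, whose human counterpart represses the long terminal repeat of the virus HTLV-1, 49.9 ± 1.61 and 39.8 ± 3.26 CPM. Zfp207, which encodes the spindle assembly protein BuGZ, averaged 177 ± 6.57 CPM in Ptbp1-deficient libraries and 154 ± 4.35 CPM in WT libraries (SD, n = 5 each; edgeR's adjusted p = 0.0011). Zfp512b stood at 71.5 ± 3.09 and 58.8 ± 7.002 CPM (adjusted p = 0.011), with WT replicate 5, at 46.4 CPM, far below the other WT libraries, and Zfp706, a protein with a single finger, at 113 ± 4.56 and 100.3 ± 5.65 CPM (adjusted p = 0.012). In the FPKM values the calls of Zfp382 (adjusted p = 0.16 with limma on log2(FPKM + 1)), Zfp512b (0.20) and Zfp706 (0.43) were lost, and that of Zfp512b also with the macrophage covariate (0.38) and without Ptbp1-deficient replicates 1 and 2 (0.056). Outside the naming rule, the rises were completed by Zfp524, Zfp710, Zfp800 and Zfp810, of 1.11-fold to 1.19-fold, which were looked up after their values were seen except for Zfp710.

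None of the 5 most abundant members per length was called lower. After Zfp366 and Zfp207, the highest FPKM belonged to Zfp62 (43.3 in Ptbp1-deficient and 54.1 in WT libraries), Zfp445 (47.4 and 46.6) and Zfp385a (46.2 and 40.5). None of the 3 was called. For Zfp62 the measures differed in direction: its counts were 198 ± 11.4 CPM in Ptbp1-deficient libraries and 188 ± 9.23 CPM in WT libraries (log2 fold change 0.07, SE 0.05, edgeR's adjusted p = 0.25), while on log2(FPKM + 1) the difference was -0.34 (limma's adjusted p = 0.091). Zfp445, a KRAB gene that guards genomic imprints together with Zfp57, averaged 208 ± 11.3 CPM in Ptbp1-deficient libraries and 201 ± 14.1 CPM in WT libraries (log2 fold change 0.05, SE 0.06, edgeR's adjusted p = 0.53). Zfp385a, a gene of blood cell precursors that also binds RNA, was at 156 ± 6.66 and 154 ± 8.32 CPM (adjusted p = 0.80).

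Some KRAB genes with well-known targets in the mouse embryo were looked up after the values were seen. Zfp809, which silences murine leukaemia virus in embryonic cells, averaged 28.9 ± 1.20 CPM in Ptbp1-deficient libraries and 37.8 ± 1.83 CPM in WT libraries (log2 fold change -0.39, edgeR's adjusted p = 5.2e-05). Zfp568, a repressor of a placental Igf2 transcript, was at 20.2 ± 1.48 and 24.2 ± 1.56 CPM (log2 fold change -0.26, adjusted p = 0.0071). Zfp57, the imprinting factor, was at 6.03 ± 0.81 and 5.21 ± 1.17 CPM and was not called (adjusted p = 0.31).

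On the chromosomes, 112 of the 234 members lie on chromosomes 7 (53), 17 (33) and 13 (26), with 34, 20 and 10 lower and 3, 0 and 2 higher. In 23 clusters, defined as 3 or more members with at most 1 Mb between neighbouring starts, lie 134 members, 103 of them with a KRAB box. Of these 134, 81 (60.4%) were lower and 4 higher, and their median log2 fold change was -0.26. Of the 100 members outside clusters, 43 were lower and 8 higher, with a median of -0.15. Without WT replicate 5 the lower counts were 99 and 46. All 23 clusters had a negative median, from -0.48 to -0.13, and 19 held no member called higher. The other tested genes that start inside the clusters also had a negative median in most clusters that held any. These neighbours include Zfp genes that are not members, were not held to 1 FPKM, and were few in several clusters. The members of 5 clusters were all lower, and 1 cluster, Zfp808 to Zfp934 on chromosome 13, had no member called.

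**Figure D5:**
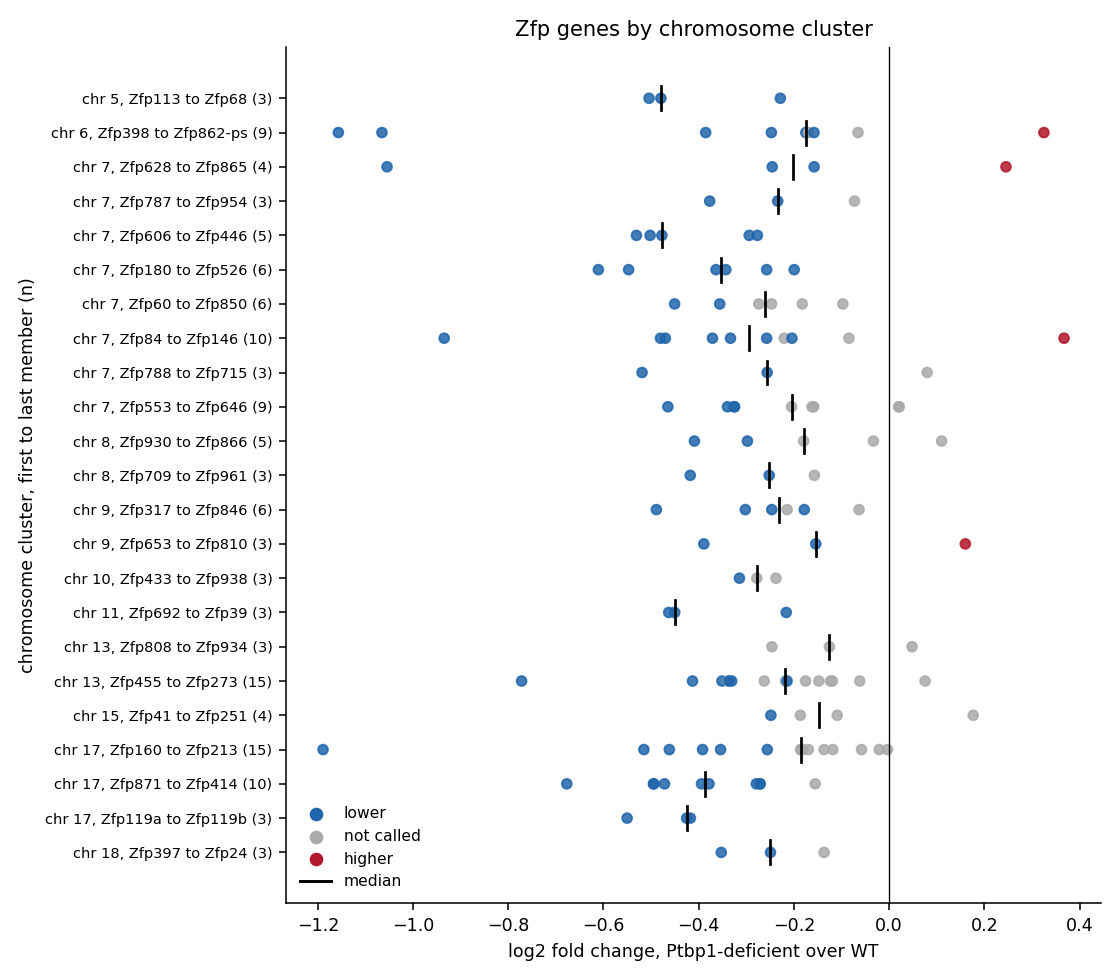
Log2 fold change, Ptbp1-deficient over WT (horizontal axis), of each member of the 23 chromosome clusters (vertical axis, named by the chromosome and the first and last member, with the number of members in parentheses). Blue points were called lower, red higher and grey not called, and black bars are cluster medians, which run from -0.48 to -0.13.

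The cluster with the most members called lower was on chromosome 17 at 32.8 to 33.6 Mb of GRCm38, from Zfp871 to Zfp414. Of its 10 members 9 were lower, all of them with a KRAB box, and the tenth, Zfp414, has none (log2 fold change -0.16, edgeR's adjusted p = 0.052). Zfp870 had its largest fall, at 12.6 ± 0.800 CPM in Ptbp1-deficient libraries and 20.1 ± 2.51 CPM in WT libraries (SD, n = 5 each; log2 fold change -0.68, edgeR's adjusted p = 9.9e-05). WT replicate 5, at 15.9 CPM, was the lowest WT library and still above every Ptbp1-deficient library. The twin genes Zfp955a and Zfp955b in this cluster share 26.5% and 16.0% of their 100-base words with another gene, mostly each other, so their single values are uncertain. Of 9 other tested genes that start inside it, 4 were lower and 1 higher, with a median of -0.43.

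Further up the same chromosome, at 21.0 to 23.6 Mb, all 15 members from Zfp160 to Zfp213 carry a KRAB box and all had negative values, but 6 were lower, Zfp53 among them. The other cluster of 15, on chromosome 13 at 67.2 to 67.8 Mb, had 6 lower, none higher and 14 negative values. There Zfp595 had the smallest adjusted p, at 10.5 ± 0.852 CPM in Ptbp1-deficient libraries and 13.99 ± 1.14 CPM in WT libraries (log2 fold change -0.41, edgeR's adjusted p = 0.0013). On chromosome 17 at 55.9 Mb, the trio Zfp119a, Zfp959 and Zfp119b was lower throughout, with log2 fold changes of -0.42, -0.43 and -0.55.

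Chromosome 7 holds 8 clusters. All 5 members from Zfp606 to Zfp446 and all 6 from Zfp180 to Zfp526 were lower. Zfp110, in the first of these, encodes NRIF, a partner of the neurotrophin receptor p75, and had 41.8, 42.0, 40.6, 38.9 and 38.4 CPM in Ptbp1-deficient libraries, against 48.0, 49.6, 49.9, 49.5 and 47.3 CPM in WT libraries (log2 fold change -0.28, SE 0.04, adjusted p = 0.00016). The difference was small and the groups did not overlap, but in the FPKM values the adjusted p was 0.063 (limma on log2(FPKM + 1)). Zfp235, in the second, averaged 5.27 ± 0.738 CPM in Ptbp1-deficient libraries and 8.05 ± 1.09 CPM in WT libraries (log2 fold change -0.61, edgeR's adjusted p = 0.0017). From Zfp84 to Zfp146, 7 of 10 were lower while Zfp382 rose. From Zfp60 to Zfp850, 2 of 6 were lower, and Zfp60 (log2 fold change -0.45, edgeR's adjusted p = 0.0022) was not called in the FPKM values (adjusted p = 0.68 with limma). Of the 9 members from Zfp553 to Zfp646, 4 were lower, led by Zfp629 at 23.4 ± 2.00 and 32.3 ± 2.47 CPM (log2 fold change -0.46, edgeR's adjusted p = 0.00027).

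The cluster on chromosome 6, from Zfp398 to Zfp862-ps, held both the widest spread and both directions. Of its 9 members 6 were lower, with Zfp467 and Zfp862-ps at the bottom, and Zfp282 was higher. Its median was -0.17. Among the smaller clusters, Zfp317 on chromosome 9 (26.2 ± 1.31 in Ptbp1-deficient and 32.2 ± 0.944 CPM in WT libraries, adjusted p = 0.00027 with edgeR) and Zfp869 on chromosome 8 (29.7 ± 1.90 and 36.5 ± 2.08 CPM, adjusted p = 0.0012) had the smallest adjusted p of theirs, though not the largest fall. Zfp707 on chromosome 15, the only called member of its 4, had an edgeR adjusted p of 0.047 and was no longer called when any library was left out except Ptbp1-deficient replicate 2 and WT replicates 3 and 5.

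Other genes start inside the same clusters. Of 211 tested genes there whose name is not Zfp and a digit, 48 (22.7%) were lower and 26 (12.3%) higher, and the median log2 fold change was -0.11. Over all genes tested 23.1% were lower and 21.9% higher, with a median of -0.03. Set against these and the Zfp genes that are not members in the same stretches, the members' median was below that of their neighbours in 10 of 21 clusters with neighbours. The difference between members and neighbours was not tested.

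The count table also holds 96 genes named Zfp and a digit in GENCODE whose identifiers are absent from the FPKM table, and 91 of them could be tested. Of these 41 (45.1%) were lower and 3 higher, and their median log2 fold change was -0.44, at a median level of 2.02 CPM against 18.9 CPM for the members. The count of 3 was 5 without WT replicate 1. Called falls of over 1.5-fold were found for 29 of the 91. Such falls made up 11.1% of all genes tested and 5.96% of the FPKM table, so they were commoner in general outside that table. All 18248 genes tested held 4216 lower, 2025 of them by over 1.5-fold, and the 11691 of the FPKM table held 2749 and 697. The difference between these counts is the background of tested genes outside that table, which includes the 91. That background was not matched to the 91 in level, and the comparison was not tested. A further 14 genes named Zfp and a digit in GENCODE stand in the FPKM table under other names and so are not members. Of the 13 tested, 3 were lower. Among the genes absent from the FPKM table, 2 are named after their values were seen. Zfp608, known as a regulator in mouse thymocytes, had 8.73, 8.10, 8.14, 6.35 and 6.32 CPM in Ptbp1-deficient libraries, against 29.99, 27.0, 26.0, 27.7 and 35.3 CPM in WT libraries (log2 fold change -1.96, SE 0.12, edgeR's adjusted p = 3.9e-07). Its groups were far apart. Zfp618 rose, at 5.05 ± 0.496 CPM in Ptbp1-deficient libraries and 1.56 ± 0.718 CPM in WT libraries (log2 fold change 1.69, edgeR's adjusted p = 0.00055). Just inside the threshold, the members with the lowest minimum FPKM were Zfp189 and Zfp846 (both 1.03) and Zfp579 (1.05). The FPKM of genes just outside was not used here.

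Near the call threshold, the smallest differences called were those of Zfp644 (log2 fold change -0.12, edgeR's adjusted p = 0.046), Zfp710 (0.15, adjusted p = 0.015) and Zfp362 (-0.15, adjusted p = 0.039). The largest not called was that of the pseudogene Zfp939 (-0.36, adjusted p = 0.076), which passed without WT replicate 5 (-0.47, adjusted p = 0.0089), as did Zfp846 (-0.21, adjusted p = 0.12, and -0.29, adjusted p = 0.020). Zfp644 lost its call when any library but Ptbp1-deficient replicates 2 and 5 or WT replicate 1 was left out, and Zfp362 when Ptbp1-deficient replicates 3, 4 or 5 or WT replicates 2, 3 or 4 were. Zfp710 lost its call in the FPKM values (adjusted p = 0.33 with limma), with the macrophage covariate (0.33) and without Ptbp1-deficient replicates 1 and 2 (0.052).

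Zinc finger genes of related families were counted in the same way. Of 29 FPKM-table genes named for the Zkscan, Zscan, Zfhx, Zfpm, Zfy, Zik, Zim, Rex2 and Zxd families, 14 were lower and 1 higher. These include 8 Zfyve genes, which encode lipid-binding FYVE domains and not C2H2 fingers and were caught by the name. Without them 12 of 21 were lower and 0 higher, with a median log2 fold change of -0.23.

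KRAB boxes act through partner proteins, of which a list of 31 names was followed. Of the 30 measured partner genes 15 were higher and 5 lower, and their median log2 fold change was 0.11. Trim28, the corepressor that KRAB boxes bind, averaged 193 ± 5.81 CPM in Ptbp1-deficient libraries and 191 ± 9.87 CPM in WT libraries (log2 fold change 0.02, SE 0.04, edgeR's adjusted p = 0.80). Setdb1, the H3K9 methyltransferase of the complex, was at 85.9 ± 7.90 and 85.1 ± 5.29 CPM (log2 fold change 0.01, SE 0.07, adjusted p = 0.89), and became lower with the macrophage covariate (-0.20, adjusted p = 0.014). Higher were the DNA methylation genes Uhrf1 (128 ± 6.58 and 65.5 ± 11.7 CPM, log2 fold change 0.97) and Dnmt1 (0.53) and the HP1 genes Cbx5 (0.44), Cbx3 (0.41) and Cbx1 (0.15). Lower were Atf7ip2 (-2.003, at 0.334 and 1.34 CPM), the nucleosome remodeller Chd3 (-0.53), the HUSH complex gene Fam208a (-0.42), Dnmt3a (-0.18) and Atf7ip (-0.14), the partner of Setdb1.

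Sequence shared with other genes was counted in words of the transcripts, and shared reads were not measured. Of the 231 protein-coding members 24 shared over 10% of their 100-base words with another gene, and 12 of these were lower and 1 higher, while of the other 207, 111 were lower and 11 higher. An annotated gene overlapped 108 members, of which 51 were lower and 7 higher, and the 126 members that overlap none had 73 lower and 5 higher.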

How the data were processed

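RNA of 10 libraries, 5 Ptbp1-deficient and 5 WT, was read as paired 150 bp reads, per the labels' protocols. The submitters' processing notes name HISAT2, StringTie, DESeq2 and the build GRCh38, without versions, while the identifiers are mouse. The authors deposited unnormalized counts per gene, and FPKM values for genes above 1 FPKM in every library. No source used here names the counting tool or its strand setting.

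Counts were filtered with filterByExpr, TMM-normalized and compared with edgeR 4.0.16 (quasi-likelihood, genotype only, R 4.3.3), which was tested on simulated data. Coordinates and proteins came from GENCODE M21 (GRCm38), by Ensembl ID, which matched all 234 members; a protein is the translated longest coding transcript, since no RefSeq protein was used here. Fingers were counted by pattern and KRAB boxes found with HMMER 3.4 (E under 1e-05). Promoters came from RefSeq. The members, lists and alternatives were chosen with earlier results of these data known. The naming rule took the 8 largest falls and the 8 largest rises among called members whose groups did not overlap, the 5 highest in FPKM, the member with the smallest adjusted p in each cluster of at least 4, Ptbp1, Trim28, Setdb1, and those nearest the FPKM and call thresholds. Alternatives were other normalizations, filters, tools (DESeq2 1.42.0, limma 3.58.1 with voom or on log2 FPKM), covariates and left-out libraries. Counts of classes without WT replicate 5 were added after seeing the data.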

Additional observations from a re-analysis of the deposited data

Results flagged for a closer look

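WT replicate 5 stood far from the other 4 WT libraries in 4 of the 80 groups of 5 values that were screened, where chance flags about 1 in 20. The number of flags over all groups is thus no larger than that rate gives. All 4 fell on the same library, however, so this comparison does not judge how far WT replicate 5 deviates. The 4 are also not separate, since members with a KRAB box are part of all members. The mean log2 CPM of all members was 4.25 in this library and at least 4.40 in every other WT library. The mean log2 CPM of members with a KRAB box was 3.58, against 3.81 to 3.85 in the other WT libraries. Zfp512b was at 46.4 CPM in WT replicate 5 and at 61.1 to 63.2 CPM in the other WT libraries, and Zfp62 was at 172 CPM, against 189 to 195 CPM. The same library held the most macrophage marker transcripts, a summed 4568 CPM against 1751 to 3214 CPM in the other WT libraries, and the part of these cells in the 4 values was not tested.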

How the results depend on the processing

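In none of the alternatives was a called member called in the opposite direction. Of the 124 members called lower, 87 (adjusted p under 0.01) to 124 remained so, and the count of lower members was 87 to 156. The count of higher members, 12, was 6 on log2 FPKM with either pseudocount (0.1 or 1), 6 with the macrophage score as a covariate, 6 at an adjusted p under 0.01 and 7 without Ptbp1-deficient replicates 1 and 2. With the macrophage score the members' median was -0.33. On log2 FPKM, a table of 11968 genes, 2435 genes were higher, beside 3392 of the 11691 of them tested on counts, and 9 partner genes were. Among Zfp genes absent from the FPKM table, 6 were higher with limma-voom, and 26 were lower at an adjusted p under 0.01, where 3 partner genes were. Leaving out 1 library gave 100 to 145 lower and 9 to 11 higher members, medians of -0.24 to -0.19, and 3 to 5 higher among Zfp genes absent from the FPKM table. Setdb1 turned to -0.20 with the macrophage score. The cause of these shifts was not tested. The replicate numbers did not pair the libraries (correlations of deviations from -0.10 to 0.11), and with the replicate block 110 members were lower and 10 higher. Libraries of a group were unevenly alike. The mean chi-square per gene was 5.47 between Ptbp1-deficient replicates 1 and 2, and 34.2 to 55.2 between these and replicates 3 to 5. It was 8.80 to 10.6 among WT replicates 2 to 4, and 38.9 to 104 in pairs with WT replicates 1 or 5. The p-values treat all libraries of a group as independent. Clusters with at most 0.5 Mb or 2 Mb between starts numbered 20 and 22, with 121 and 146 members. Every member had at least 36 counts in each library, so counting error was small for most, but small differences at 5 libraries a group depend on single libraries.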
